A study of Mus musculus with 30 samples.

Results

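The genes described here are the TAM receptors Axl, Tyro3 and Mertk and their ligands Pros1 and Gas6. They were selected by gene symbol, with their counts in these 6 groups of libraries already known, so their levels and fold changes are a description. Their calls in the fit over all genes are counted once beside the background, and nothing is read from them. These are 5 of the 55573 genes in the deposited table. Axl, Tyro3 and Pros1 passed the filter on low counts, as did 11718 genes in all, and Mertk and Gas6 did not. The RNA came from cultured CD8+ T cells, naive when isolated from lymph nodes and spleen, of C57BL/6 mice at an age of 8 weeks with a Furin knockout (KO) or wild-type Furin (WT). Every culture, WT included, was stimulated for 3 days without serum by plate-bound anti-CD3 and anti-CD28 at 5 µg/ml each. The groups were KO and WT cells with IL12 at 10 ng/ml, KO and WT cells with TGFB1 at 0.5 ng/ml, and KO and WT cells with no added cytokine. Each of the 6 groups had 5 libraries, 4 from female mice and 1 from a male. The labels give neither the promoter or cell type of the deletion nor the part of Furin that is deleted.

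TAM receptors are receptor tyrosine kinases of the cell surface. Their ligands GAS6 and protein S, the product of Pros1, are secreted proteins that bind phosphatidylserine, a lipid exposed on dying and activated cells, and so bridge those cells to the receptor. GAS6 binds all TAM receptors, while protein S is known as a ligand of TYRO3 and MERTK and not of AXL. In macrophages and dendritic cells the receptors are known for the uptake of apoptotic cells and for restraining innate cytokine responses, and in mice protein S made by activated T cells has been described to act on dendritic cells. FURIN is a proprotein convertase, an enzyme that cuts precursor proteins such as that of TGFB1.

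Total counts per library were 7306151 to 15502443, so that 1 read was worth 0.0637 to 0.137 counts-per-million (CPM). Furin mRNA averaged 214 ± 142 CPM in KO against 375 ± 186 CPM in WT with IL12, 77.9 ± 9.26 CPM in KO against 80.9 ± 7.64 CPM in WT with TGFB1, and 32.6 ± 0.828 CPM in KO against 34.5 ± 3.57 CPM in WT without cytokine (SD, n = 5 each). Its log2 fold change, KO over WT, was -0.81 ± 0.28 with IL12 (edgeR, adjusted p = 0.0799), -0.05 ± 0.29 with TGFB1 (adjusted p = 0.901) and -0.08 ± 0.31 without cytokine (adjusted p = 0.914). With IL12 the Furin levels of the groups overlapped. WT 62 and WT 67 were at 161 and 182 CPM, and the other WT libraries at 485 to 533 CPM. KO 74 was at 463 CPM, and the other KO libraries at 120 to 196 CPM. Counts over the whole gene do not check a deletion of one part of it. KO therefore stands for the libraries labelled KO. The 6 markers of CD8 T cells (Cd3d, Cd3e, Cd3g, Cd8a, Cd8b1 and Trac) summed to 1690 to 4290 CPM in the 30 libraries. Libraries are named by the number in their label. Numbers 63, 68, 70, 73 and 74 are KO, numbers 62, 67, 71, 72 and 75 are WT, and 62 and 63 are the males. The labels do not say whether cultures with the same number came from the same mouse, so errors and p-values measure only the spread between these libraries.

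The sequences around the annotated starts of the 3 measured genes are shown because their levels are compared below and the promoters differ in base composition. Each window holds 250 bases before and 50 bases after the start of the gene in RefSeq on GRCm38.p6, read 5′ to 3′ on the gene's strand. For Tyro3 the RefSeq start lies inside the gene as GENCODE vM21 gives it, so this window is downstream of the GENCODE start. Capitals mark matches to 4 motifs, searched on both strands: the AP-1 site TGANTCA, the STAT site TTCNNNGAA, the SMAD box CAGAC and the SP1 box GGGCGG. Of the 32851 promoters of the same length, 7.81%, 8.3%, 49.6% and 35.7% held at least 1 match, in that order. Axl lies at chr7:25788684-25788983 (minus strand), Tyro3 at chr2:119799264-119799563 (plus strand) and Pros1 at chr16:62854057-62854356 (plus strand).
Axl: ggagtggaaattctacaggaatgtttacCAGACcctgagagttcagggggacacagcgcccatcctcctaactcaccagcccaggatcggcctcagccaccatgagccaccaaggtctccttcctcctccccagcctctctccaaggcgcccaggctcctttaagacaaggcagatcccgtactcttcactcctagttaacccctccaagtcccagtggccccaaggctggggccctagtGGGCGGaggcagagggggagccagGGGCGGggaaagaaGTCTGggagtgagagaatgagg
Tyro3: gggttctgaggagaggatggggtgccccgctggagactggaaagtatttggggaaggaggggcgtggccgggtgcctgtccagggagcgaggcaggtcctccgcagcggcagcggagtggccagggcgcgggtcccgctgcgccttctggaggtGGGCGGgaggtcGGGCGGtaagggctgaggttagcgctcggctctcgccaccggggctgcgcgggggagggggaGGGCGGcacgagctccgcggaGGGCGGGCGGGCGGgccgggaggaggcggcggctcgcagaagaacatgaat
Pros1: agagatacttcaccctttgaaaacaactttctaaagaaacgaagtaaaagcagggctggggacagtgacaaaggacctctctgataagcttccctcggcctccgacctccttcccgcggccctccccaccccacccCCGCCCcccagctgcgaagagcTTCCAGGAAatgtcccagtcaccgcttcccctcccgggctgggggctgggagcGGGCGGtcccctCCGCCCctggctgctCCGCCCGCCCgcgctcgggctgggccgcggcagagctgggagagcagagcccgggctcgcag

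The Axl window held 2 SMAD boxes and 2 SP1 boxes, the Tyro3 window 6 SP1 boxes, some of them overlapping, and the Pros1 window 5 SP1 boxes, 2 of them overlapping, and 1 STAT site that starts 92 bases before the start of the gene. No window held the AP-1 letters. GC content was 60.3% for Axl, 73.3% for Tyro3 and 66.7% for Pros1, against a median of 52.7% over all promoters, and the number of CpG pairs was 6, 31 and 21. A match says only that these letters are present in the window.

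Axl, Tyro3 and Pros1 were read in all 30 libraries, while Mertk and Gas6 were nearly absent. On GRCm38, Axl (ENSMUSG00000002602) lies on chromosome 7 from 25757273 to 25788705, Tyro3 (ENSMUSG00000027298) on chromosome 2 from 119797733 to 119818104, and Pros1 (ENSMUSG00000022912) on chromosome 16 from 62854307 to 62929346. None of these 3 overlaps another annotated gene. Averaged over all libraries, the level was 16.1 CPM for Axl, 3.94 CPM for Tyro3 and 18.5 CPM for Pros1, and 37.4%, 19.3% and 39.9% of the tested genes had a lower mean level.

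Mertk (ENSMUSG00000014361, chromosome 2 from 128698956 to 128802894), the receptor best known from macrophages, had 2 counts in the 30 libraries together, 1 in KO 73 and 1 in WT 71, both with TGFB1. Gas6 (ENSMUSG00000031451, chromosome 8 from 13465374 to 13494490), the ligand of all TAM receptors, had 5 counts: 1 each in KO 70, 73 and 74 with IL12, in KO 73 with TGFB1 and in WT 72 with TGFB1. A limit of 3 counts corresponds to 0.0502 to 0.0676 CPM over a group, and both genes were at or under it in every group, so no fold is given. Both overlap other annotated genes, Mertk without any shared exon base and Gas6 with 34 shared exon bases of Tmem255b on the other strand. Measurable TAM genes in these cultures were the receptors Axl and Tyro3 and the ligand Pros1.

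Per length, Pros1 and Axl were above Tyro3 in each of the 6 groups. On the scale of CPM per kb of exons, Pros1 averaged 7.90 and Axl 5.48 in KO cells with TGFB1, against 0.688 for Tyro3 there. In WT cells without cytokine the mean levels per kb were 4.96 for Pros1, 1.13 for Axl and 0.599 for Tyro3. Axl was above Pros1 in KO cells with IL12 (4.79 against 3.88 CPM per kb), and the 2 were nearly level in WT cells with TGFB1 (3.33 against 3.30 CPM per kb).

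**Figure D1:**
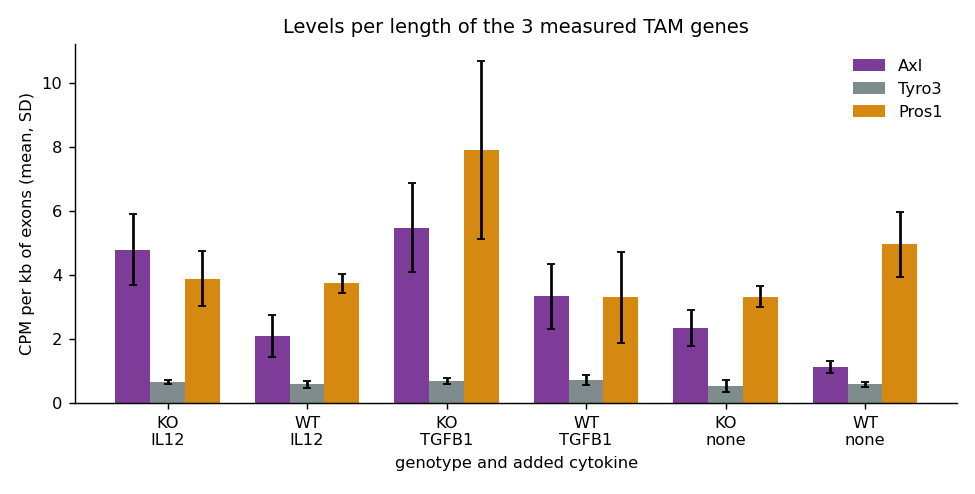
Mean level per length of Axl, Tyro3 and Pros1 in the 6 groups, in CPM per kb of exons; bars are means of 5 libraries and error bars 1 SD. Tyro3 stays between 0.542 and 0.728 CPM per kb, while Axl runs from 1.13 in WT cells without cytokine to 5.48 in KO cells with TGFB1.

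Axl, the receptor that answers to GAS6 alone, was higher in KO than in WT cells under all 3 conditions, and higher with either cytokine than without in both genotypes. With IL12, KO libraries 63, 68, 70, 73 and 74 held 20.1, 27.1, 25.6, 16.9 and 30.7 CPM of Axl, and WT libraries 62, 67, 71, 72 and 75 held 10.5, 8.04, 12.1, 15.2 and 6.94 CPM. The groups did not overlap, and the lowest KO library was above the highest WT library. The means were 24.1 ± 5.53 CPM in KO against 10.6 ± 3.28 CPM in WT (SD, n = 5 each), a log2 fold change of 1.19 ± 0.22 (SE).

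With TGFB1 the KO libraries held 20.5, 30.1, 36.4, 20.2 and 30.7 CPM of Axl, in the same order of numbers, against 12.1, 14.5, 15.3, 25.4 and 16.4 CPM in the WT libraries. Here the groups overlapped through WT 72, and 3 of 5 KO libraries were above every WT library. The means were 27.6 ± 7.04 CPM in KO against 16.7 ± 5.10 CPM in WT (SD, n = 5 each), and the log2 fold change was 0.72 ± 0.21 (SE), or 0.91 without WT 72.

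Without added cytokine Axl was at 10.4, 14.3, 14.1, 7.67 and 13 CPM in KO libraries and at 6.56, 6.07, 4.0, 5.74 and 6.13 CPM in WT libraries. The groups again did not overlap, with the lowest KO library, 73, a little above the highest WT library, 62. The means were 11.9 ± 2.83 CPM in KO against 5.70 ± 0.992 CPM in WT (SD, n = 5 each), a log2 fold change of 1.05 ± 0.24 (SE).

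**Figure D2:**
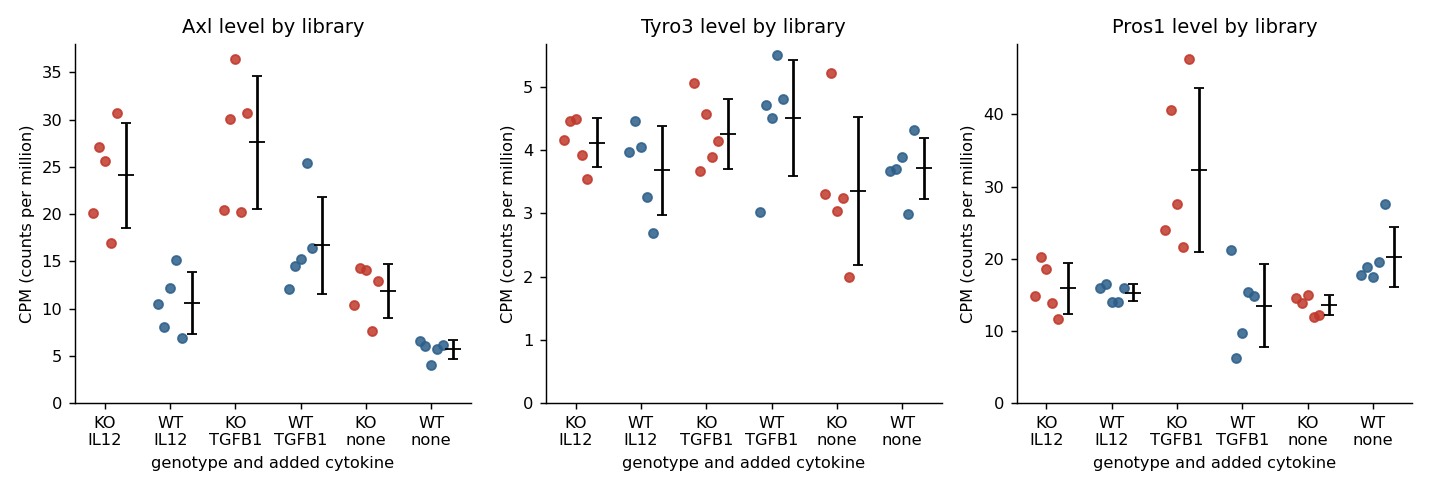
Level of Axl, Tyro3 and Pros1 in each library, in CPM, by genotype (KO red, WT blue) and added cytokine; points are libraries, and the black dash and bar beside them are the mean and 1 SD of 5. Axl is higher in KO than in WT in each condition, with an overlap only with TGFB1, and the highest Pros1 levels are in KO cells with TGFB1 (21.6 to 47.7 CPM).

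Against cultures of the same genotype without cytokine, the log2 fold change of Axl with IL12 was 1.02 ± 0.22 in KO and 0.88 ± 0.24 in WT cells. With TGFB1 it was 1.22 ± 0.22 in KO and 1.55 ± 0.24 in WT cells. None of these 4 pairs of groups overlapped, and within each library number Axl was higher with each cytokine, in 5 of 5 numbers of both genotypes. The response in KO minus that in WT was 0.14 ± 0.33 for IL12 and -0.34 ± 0.32 for TGFB1 (log2, SE). In these comparisons the cultures without cytokine are shared between the 2 cytokines.

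Ordered by mean level, Axl ran from KO with TGFB1 through KO with IL12, WT with TGFB1, KO without cytokine and WT with IL12 to WT without cytokine. The ranges of neighbours in this order overlapped, except between WT with IL12 (6.94 to 15.2 CPM) and WT without cytokine (4.0 to 6.56 CPM). Between the cytokines, IL12 over TGFB1, the log2 fold change was -0.19 ± 0.21 in KO and -0.67 ± 0.22 in WT cells, with overlapping groups in both. The WT value was -0.48 without WT 72 with TGFB1.

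Axl is also known from macrophages, dendritic cells and stroma, so markers of these cells were read beside it. Of 12 markers of macrophages and monocytes 2 passed the filter (Lyz2 and Cd68), C1qa was at 0 in all libraries, and Csf1r had 16 counts and C1qb 5 counts in the 30 libraries together. The 12 summed to 3.12 to 6.32 CPM in KO against 2.60 to 9.16 CPM in WT cells with IL12, to 3.59 to 8.63 CPM in KO against 3.36 to 7.49 CPM in WT cells with TGFB1, and to 2.90 to 7.65 CPM in KO against 1.67 to 3.77 CPM in WT cells without cytokine. With IL12 the KO range lay within the WT range, and with TGFB1 the ranges overlapped. Without cytokine the KO range overlapped the WT range and reached higher, where Axl was higher in KO as well. Among these markers, S100a8 and S100a9 were read only in KO cells without cytokine. Their highest libraries there were at 0.924 and 1.98 CPM, against group means of 0.185 and 0.396 CPM. Lyz2 had a higher mean in KO in each condition, as Axl did, with single libraries from 0 to 4.68 CPM. It averaged 0.541 CPM in KO against 0.295 CPM in WT with IL12, 1.5 against 0.542 CPM with TGFB1, and 0.945 against 0.621 CPM without cytokine. Other markers of the list did not follow this. In the same order of conditions, Cd14 averaged 0.883 against 0.923, 0.449 against 0.439 and 0.301 against 0.449 CPM. Itgam averaged 0.111 against 0.257, 0.0189 against 0.383 and 0.171 against 0.161 CPM. For Cd68 the means in KO and WT were 2.8 and 2.78 CPM with IL12, 3.28 and 3.71 CPM with TGFB1, and 2.4 and 1.67 CPM without cytokine.

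Of 7 dendritic cell markers 1 passed the filter (Zbtb46), Siglech and Cd209a were at 0, and the sum was 0.854 to 5.52 CPM over all libraries. This sum was 2.42 to 5.52 CPM in KO against 2.32 to 5.26 CPM in WT cells with IL12, 1.84 to 2.39 CPM in KO against 0.854 to 2.12 CPM in WT cells with TGFB1, and 1.98 to 2.48 CPM in KO against 1.33 to 3.29 CPM in WT cells without cytokine. Of 7 stromal and endothelial markers 1 passed (Pecam1, which T cells also express) and Pdgfra was at 0. Their sum was 8.73 to 34.0 CPM in KO against 14 to 39.8 CPM in WT cells with IL12, 7.64 to 35.7 CPM in KO against 26.3 to 81.5 CPM in WT cells with TGFB1, and 42.5 to 59.4 CPM in KO against 50.1 to 78.1 CPM in WT cells without cytokine. The part of such cells in the Axl levels was not tested. In bulk cultures, more cells that express a gene and more of its RNA per cell cannot be told apart.

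Markers of B cells, NK cells, CD4 T cells, and platelets and erythroid cells were also read. The 5 B cell markers summed to 5.99 to 18.6 CPM, of which Cd79b alone passed the filter. The 3 NK cell markers summed to 0.133 to 4.74 CPM, the 3 CD4 T cell markers to 11.7 to 33.6 CPM and the 6 platelet and erythroid markers to 0.236 to 2.16 CPM, with Hba-a1 at 0. Of the CD4 T cell markers, Zbtb7b averaged 16.5 CPM over all libraries, Cd40lg 3.56 CPM and Cd4 itself 0.482 CPM.

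Tyro3, a receptor for both ligands, was read at a low level, with group means from 3.36 to 4.51 CPM and single libraries from 2.0 to 5.50 CPM. With IL12 it was at 4.16, 4.46, 4.49, 3.93 and 3.54 CPM in KO and at 3.96, 4.46, 4.05, 3.26 and 2.69 CPM in WT libraries. With TGFB1 it was at 5.05, 3.67, 4.57, 3.88 and 4.14 CPM in KO and at 3.02, 4.72, 4.50, 5.50 and 4.80 CPM in WT libraries. Without cytokine it was at 3.31, 5.22, 3.04, 3.24 and 2.0 CPM in KO and at 3.67, 3.70, 3.89, 2.99 and 4.31 CPM in WT libraries. All 6 groups overlapped one another.

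The log2 fold change of Tyro3, KO over WT, was 0.16 ± 0.18 with IL12, -0.09 ± 0.18 with TGFB1 and -0.14 ± 0.19 without cytokine (SE). Against no cytokine it was 0.29 and -0.01 with IL12 in KO and WT, and 0.34 and 0.28 with TGFB1 in KO and WT. The values that use KO without cytokine moved with its highest and its lowest library. Without KO 68, the highest, they were -0.36 for KO over WT, 0.51 for IL12 in KO and 0.55 for TGFB1 in KO. Without KO 74, the lowest, they were 0.00, 0.15 and 0.19. The counts of Tyro3 were 20 to 70 per library.

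The balance of the 2 receptors moved mainly with Axl. The ratio of Axl to Tyro3 level per kb had a median of 7.03 in KO and 3.27 in WT cells with IL12, 9.11 in KO and 4.21 in WT cells with TGFB1, and 3.86 in KO and 2.02 in WT cells without cytokine. In the sum of both receptors per kb, Axl made up 88.3% ± 3.34 in KO cells with TGFB1 and 65.1% ± 5.69 in WT cells without cytokine (SD, n = 5 each).

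Pros1, the gene of protein S, differed between the genotypes in opposite directions with TGFB1 and without cytokine. With TGFB1, KO libraries 63, 68, 70, 73 and 74 held 23.9, 40.6, 27.6, 21.6 and 47.7 CPM of Pros1, and WT libraries 62, 67, 71, 72 and 75 held 21.3, 6.25, 9.71, 15.4 and 14.8 CPM. The groups did not overlap, with KO 73 next to WT 62, the male of the WT group. The means were 32.3 ± 11.3 CPM in KO against 13.5 ± 5.76 CPM in WT (SD, n = 5 each), and the log2 fold change was 1.26 ± 0.23 (SE), or 1.56 in the females alone.

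Without cytokine Pros1 was at 14.6, 13.9, 15, 12 and 12.3 CPM in KO and at 17.8, 18.9, 17.4, 19.6 and 27.6 CPM in WT libraries. Every KO library was below every WT library, and WT 75 stood above the rest of its group. The means were 13.6 ± 1.36 CPM in KO against 20.3 ± 4.18 CPM in WT (SD, n = 5 each), a log2 fold change of -0.58 ± 0.23 (SE), or -0.45 without WT 75.

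With IL12 the levels of Pros1 were 14.9, 20.3, 18.6, 13.8 and 11.7 CPM in KO and 16, 16.5, 14.1, 14 and 16 CPM in WT libraries. The groups overlapped, and the WT libraries lay within the range of the KO libraries. The means were 15.9 ± 3.51 CPM in KO against 15.3 ± 1.17 CPM in WT (SD, n = 5 each), a log2 fold change of 0.06 ± 0.23 (SE).

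**Figure D3:**
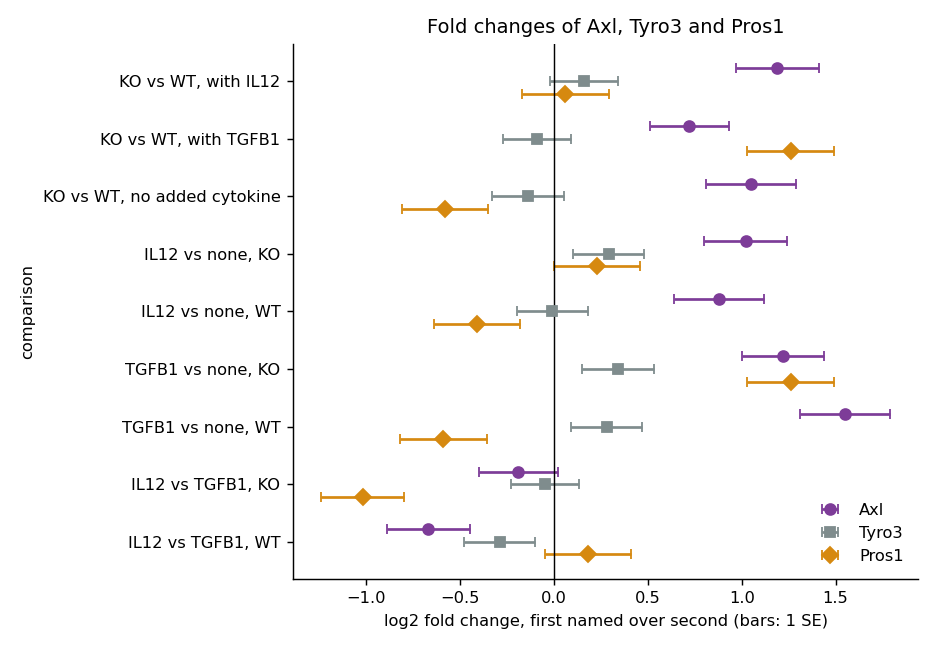
Log2 fold changes of Axl, Tyro3 and Pros1 in 9 comparisons, first named group over second; points are estimates from a fit to all 30 libraries and bars 1 SE. Axl lies to the right of 0 in all comparisons of KO with WT and of a cytokine with none, and Pros1 lies on opposite sides of 0 for TGFB1 in KO (1.26) and in WT (-0.59).

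The response of Pros1 to TGFB1 had the opposite sign in the 2 genotypes. Against cultures without cytokine, the log2 fold change was 1.26 ± 0.23 in KO cells, where every library with TGFB1 was above every library without, and -0.59 ± 0.23 in WT cells, where 4 of 5 libraries with TGFB1 were below every library without (SE). Within library numbers, Pros1 was higher with TGFB1 in 5 of 5 KO numbers, by 0.72 to 1.95 on the log2 scale, and lower in 4 of 5 WT numbers, with differences from -1.58 to 0.26. WT 62 was the number with the positive difference. The response in KO minus that in WT was 1.84 ± 0.32 (log2, SE), and 1.64 to 2.06 over the fits that each left out 1 library.

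With IL12 against no cytokine, the log2 fold change of Pros1 was 0.23 ± 0.23 in KO, with overlapping groups. In WT it was -0.41 ± 0.23, with every IL12 library below every library without cytokine, and -0.27 without WT 75 without cytokine, a shift of over 1.5 times. The response in KO minus that in WT was 0.64 ± 0.32 (log2, SE). Between the cytokines, IL12 over TGFB1, it was -1.02 ± 0.22 in KO, without overlap, and 0.18 ± 0.23 in WT. Ordered by mean level, Pros1 ran from KO with TGFB1 through WT without cytokine, KO with IL12, WT with IL12 and KO without cytokine to WT with TGFB1. The ranges of KO with IL12, WT with IL12, KO without cytokine and WT with TGFB1 overlapped one another. KO with IL12 and, through WT 62, WT with TGFB1 reached into WT without cytokine (17.4 to 27.6 CPM). KO with TGFB1 and WT without cytokine overlapped only in the span from 21.6 to 27.6 CPM.

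An adjusted p below 0.05 from the edgeR quasi-likelihood fit is termed a call. Of the 3 members tested, 1 (Axl) was called between KO and WT with IL12, where 6.78% of all tested genes were called. With TGFB1 2 (Axl and Pros1) were called against a background of 35.6%, and without cytokine 1 (Axl) against 2.1%. Pros1 was called as well without cytokine in the fit to the compared groups alone. That fit called 1099 genes, against 246 in the fit to all libraries. For IL12 against no cytokine the number of members called was 1 (Axl) in KO and 1 (Axl) in WT, with backgrounds of 14.2% and 18.9%. For TGFB1 against no cytokine it was 2 (Axl and Pros1) in KO and 2 (Axl and Pros1) in WT, with backgrounds of 24.5% and 37.9%. For the difference in the TGFB1 response it was 1 (Pros1), with a background of 3.3%. Since the members were selected from these data, nothing is read from these counts. The Axl call between KO and WT without cytokine ended without KO 68, 70 or 74 or WT 71 or 72 of that condition, with fold changes from 0.96 to 1.17 over all leave-outs. In the fits that ended it, between 7 (without KO 74) and 28 (without KO 70) genes of the whole table were called, against 246 with all libraries. The Axl call for IL12 in WT ended without WT 72 with IL12 (0.72). Tyro3 was called in none of these comparisons in the fit to all libraries, and was called for TGFB1 in KO without KO 68 without cytokine. The Pros1 call for TGFB1 in WT ended in 13 of the 30 leave-outs and in the fit to the compared groups alone, and its fold change was -0.40 without WT 67 and -0.81 without WT 62, both with TGFB1.

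Genes that act with the TAM system were followed in a list of 39: enzymes that carboxylate or cut the ligands and receptors, adaptors and kinases of TAM signalling, and the interferon receptor and its STAT and SOCS genes, with which TAM receptors act in mouse dendritic cells. Of these, 34 were tested and 3 had no count. Between KO and WT with TGFB1, 19 of 34 were called (55.9%, against 35.6% of all tested genes), of which 6 rose and 13 fell, and the median log2 fold change was -0.11 against -0.01 over all tested genes. The interferon receptor chains fell: Ifnar2 averaged 32.4 ± 8.83 CPM in KO against 62.4 ± 17.8 CPM in WT (SD, n = 5 each), a log2 fold change of -0.95 ± 0.19 (edgeR, adjusted p = 0.000655), and Ifnar1 56.4 ± 17.3 CPM in KO against 99.5 ± 25.3 CPM in WT, -0.82 ± 0.20 (adjusted p = 0.00275). Libraries of both groups overlapped for these genes through WT 62, which was lowest among the WT libraries for each.

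Ptk2, the gene of focal adhesion kinase, rose by 0.93 ± 0.21 with TGFB1 in KO over WT (edgeR, adjusted p = 0.00203), at 12.1 ± 3.15 CPM in KO against 6.36 ± 2.39 CPM in WT. Twist1 encodes a basic helix-loop-helix transcription factor that is induced through Axl in mouse macrophages. It rose in KO over WT in each condition: by 1.93 ± 0.49 with IL12 (edgeR, adjusted p = 0.0194), by 1.74 ± 0.60 with TGFB1 (adjusted p = 0.0247) and by 2.64 ± 0.61 without cytokine (adjusted p = 0.023). Its level averaged 6.54 ± 3.28 CPM in KO against 1.72 ± 0.487 CPM in WT with IL12, 2.32 ± 1.79 CPM in KO against 0.691 ± 0.566 CPM in WT with TGFB1, and 3.78 ± 2.18 CPM in KO against 0.599 ± 0.456 CPM in WT without cytokine (SD, n = 5 each). The groups did not overlap with IL12 or without cytokine, and overlapped with TGFB1, where KO 63 was at 0.399 CPM. Against no cytokine, the log2 fold change of Twist1 was 0.81 ± 0.45 in KO and 1.52 ± 0.66 in WT with IL12. With TGFB1 it was -0.66 ± 0.49 in KO and 0.25 ± 0.74 in WT, while Axl rose with TGFB1 in both genotypes. None of these Twist1 values was called (edgeR, lowest adjusted p = 0.104), and a link of Twist1 to Axl was not tested.

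The Twist1 calls ended in several of the fits that left out 1 library. The call with IL12 ended without WT 72 or WT 75 with IL12 (highest adjusted p = 0.071), that with TGFB1 without WT 67 or 75 or KO 68 or 74 with TGFB1 (highest adjusted p = 0.112) and in the fit to the compared groups alone, and that without cytokine without KO 68, 70 or 74 or WT 71, 72 or 75 (highest adjusted p = 0.107). Calls over the whole table fell in these leave-outs as well. With IL12 they fell from 794 to 230 and 174, and with TGFB1 from 4166 to between 2799 and 3141. Without cytokine they fell from 246 to between 7 and 96. The fold change of Twist1 stayed between 1.63 and 2.10 with IL12, between 1.37 and 2.11 with TGFB1 and between 2.34 and 3.04 without cytokine.

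Twist1 was 1 of 2 genes of the list called between KO and WT with IL12 (5.88% of 34, against 6.78% of all tested genes) and 1 of 2 called without cytokine (5.88%, against 2.1%). With IL12 the other was Vav3, a guanine nucleotide exchange factor, which fell by 0.38 ± 0.09 on the log2 scale (edgeR, adjusted p = 0.0182). Without cytokine it was Socs1, an inhibitor of JAK signalling, which fell by 0.71 ± 0.18 (adjusted p = 0.0334), at 51.1 ± 11.4 CPM in KO against 83.5 ± 12.6 CPM in WT (SD, n = 5 each). The Socs1 call ended without the same 6 libraries as that of Twist1, and the Vav3 call without KO 70, WT 72 or WT 75 with IL12, without a filter on low counts, and in the fit to the compared groups alone. The count with IL12 became 6 without WT 62 or WT 67, 4 without KO 74, 1 without KO 70 and 0 without WT 72 or WT 75, and the count without cytokine became 4 without KO 73 and 0 without any of the 6.

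**Figure D4:**
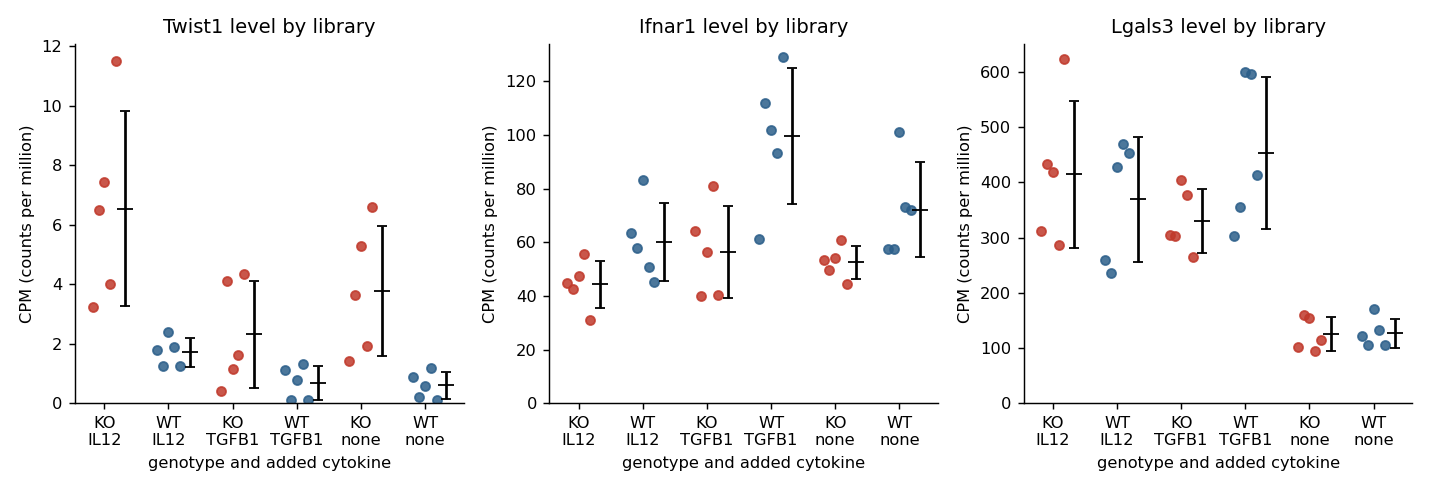
Level of Twist1, Ifnar1 and Lgals3 in each library, in CPM, by genotype (KO red, WT blue) and added cytokine; points are libraries, and the black dash and bar are the mean and 1 SD of 5. Twist1 is higher in KO in each condition, Ifnar1 is highest in WT cells with TGFB1 (61.2 to 129 CPM), and Lgals3 is higher with either cytokine in both genotypes.

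The same list was read in the responses to cytokine. With IL12 against no cytokine, 7 of 34 were called in KO (5 rose, 2 fell; 20.6%, against 14.2% of all tested genes) and 9 of 34 in WT (6 rose, 3 fell; 26.5%, against 18.9%). Furin itself rose by 2.72 ± 0.31 in KO and 3.44 ± 0.32 in WT (edgeR, adjusted p = 7.77e-07 and 2.81e-08). Plcg2, a phospholipase of receptor signalling, rose by 0.60 ± 0.17 in KO and 0.99 ± 0.18 in WT (adjusted p = 0.0199 and 0.000377), and Vav3 fell by 0.71 ± 0.09 in KO and 0.58 ± 0.09 in WT (adjusted p = 6.32e-06 and 6.66e-05). The KO count became 2 without KO 74 with IL12 and 4 without KO 74 without cytokine, and the WT count 4 without WT 72 with IL12 and 5 without WT 75 with IL12 or WT 72 without cytokine. The Plcg2 call in KO ended without KO 74 with IL12 and without KO 73 or KO 74 without cytokine (log2 fold change 0.52 to 0.72 over all leave-outs).

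With TGFB1 against no cytokine, 11 of 34 were called in KO (7 rose, 4 fell), or 32.4% against 24.5% of all tested genes. In WT it was 17 of 34 (11 rose, 6 fell), or 50% against 37.9%. Furin rose by 1.26 ± 0.30 in KO and 1.23 ± 0.30 in WT (edgeR, adjusted p = 0.00293 and 0.00233). Stat3 rose by 0.48 ± 0.13 in KO and 0.80 ± 0.13 in WT (adjusted p = 0.00767 and 4.63e-05), and Ptk2 by 1.04 ± 0.22 in KO and 0.62 ± 0.23 in WT (adjusted p = 0.000681 and 0.0357). Socs3, another inhibitor of cytokine signalling, fell by 0.97 ± 0.27 in WT (adjusted p = 0.00534), and its log2 fold change in KO was -0.24 ± 0.28 (adjusted p = 0.562). The difference between the genotypes was not called for any of these 3 (adjusted p = 0.298 for Stat3, 0.436 for Ptk2 and 0.252 for Socs3). The median log2 fold change over the 34 genes was 0.05 in KO and -0.03 in WT for IL12, and 0.00 in KO and 0.10 in WT for TGFB1, with medians over all tested genes between 0.00 and 0.02.

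A second list held 38 genes that expose or recognise phosphatidylserine, the lipid to which GAS6 and protein S bind. Only 18 were tested, as 20 were read too little, 4 of them at 0. Between KO and WT, 0 of 18 were called with IL12 (5 had an unadjusted p under 0.05, and DESeq2 called 0 and limma-voom 1) and 0 without cytokine (2 had an unadjusted p under 0.05, and DESeq2 and limma-voom called 0). With IL12 the count was 1 without WT 62, WT 67 or KO 73. The median log2 fold change of the 18 genes, KO over WT, was 0.08 with IL12 and 0.01 without cytokine.

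With TGFB1, 5 of 18 were called between KO and WT (27.8%, against 35.6% of all tested genes), of which 3 rose and 2 fell. Itgb3, an integrin chain that with Itgav binds the phosphatidylserine bridge MFGE8, fell by 1.94 ± 0.51 (edgeR, adjusted p = 0.0047), at 4.95 ± 4.19 CPM in KO against 18.9 ± 12.1 CPM in WT (SD, n = 5 each). Cd36, a scavenger receptor, rose by 1.56 ± 0.51 (adjusted p = 0.0186) and Plscr1, a phospholipid scramblase gene, by 0.49 ± 0.16 (adjusted p = 0.0184). The Cd36 and Plscr1 calls both ended without WT 67, 71 or 75 or KO 74 with TGFB1, the Cd36 call also in the fit to the compared groups alone, and the Cd36 fold change was 2.38 without WT 72. The count of 5 became 10 without WT 62, 3 without WT 67, WT 75 or KO 74, and 2 without WT 71.

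**Figure D5:**
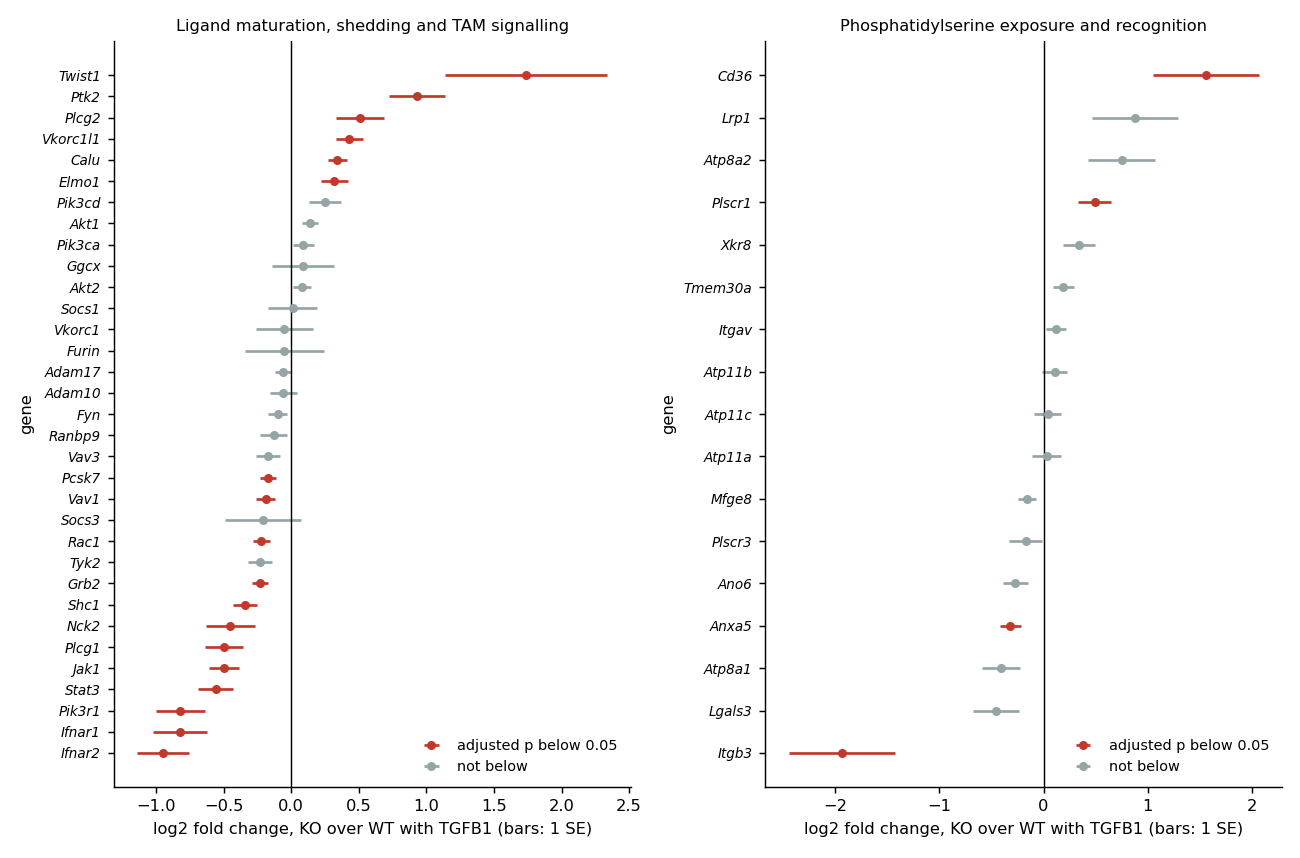
Log2 fold change, KO over WT with TGFB1, of tested genes of ligand maturation, shedding and TAM signalling and of phosphatidylserine exposure and recognition, without those not reported here; bars are 1 SE and red marks an adjusted p below 0.05 (edgeR). Twist1 and Ptk2 lead the genes that rose in the signalling list. Ifnar2 leads those shown that fell, followed by Ifnar1 and Pik3r1 (-0.82 each), and Itgb3 lies lowest in the phosphatidylserine list.

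Lgals3, the gene of galectin-3, described as a ligand of MERTK in mice, rose with both cytokines. With IL12 it rose by 1.73 ± 0.23 in KO and 1.54 ± 0.23 in WT (edgeR, adjusted p = 6.71e-06 and 2.39e-05), and with TGFB1 by 1.40 ± 0.23 in KO and 1.84 ± 0.23 in WT (adjusted p = 3.53e-05 and 1.16e-06). Its mean level was 415 ± 133 CPM in KO against 369 ± 113 CPM in WT with IL12, 330 ± 58.4 CPM in KO against 453 ± 137 CPM in WT with TGFB1, and 125 ± 30.5 CPM in KO against 127 ± 26.3 CPM in WT without cytokine (SD, n = 5 each). No library with a cytokine overlapped the libraries of its genotype without.

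For IL12 against no cytokine, 6 of 18 genes of phosphatidylserine exposure and recognition were called in KO (5 rose, 1 fell), or 33.3% against 14.2% of all tested genes. In WT it was 10 of 18 (8 rose, 2 fell), or 55.6% against 18.9%, and 6 without WT 72 with IL12. Atp8a1, a flippase gene whose product keeps phosphatidylserine on the inner face of the membrane, fell by 0.75 ± 0.18 in WT (edgeR, adjusted p = 0.00422), and its log2 fold change in KO was -0.38 ± 0.18 (adjusted p = 0.158). The difference between the genotypes, 0.37 ± 0.25 for KO minus WT, was not called for Atp8a1 (adjusted p = 0.997). Atp11a, another flippase gene, rose by 0.54 ± 0.13 in KO and 0.53 ± 0.14 in WT (adjusted p = 0.00629 and 0.00689). For TGFB1, 4 of 18 were called in KO, all of them up, and 6 of 18 in WT (4 rose, 2 fell). These shares, 22.2% and 33.3%, were below those of all tested genes, 24.5% and 37.9%. Itgav rose by 0.43 ± 0.10 in KO and 0.51 ± 0.10 in WT (adjusted p = 0.00179 and 0.000309), and Mfge8, the bridging protein itself, rose by 0.41 ± 0.09 in WT (adjusted p = 0.000887), at 28.7 ± 1.77 CPM with TGFB1 against 21.6 ± 1.64 CPM without (SD, n = 5 each). In KO its log2 fold change was 0.22 ± 0.09 (adjusted p = 0.0743). Cd36 rose by 2.14 ± 0.55 in KO (adjusted p = 0.00492), and its log2 fold change in WT was 0.94 ± 0.65 (adjusted p = 0.263). The difference between the genotypes was called for neither Mfge8 nor Cd36 (adjusted p = 0.377 and 0.434). The median log2 fold change over the 18 genes was 0.17 in KO and 0.07 in WT for IL12, and 0.08 in KO and 0.10 in WT for TGFB1.

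The genes with the pattern most like each member were found by Pearson's r of log2 CPM over the 30 libraries, among 9434 tested genes with a mean of at least 4 CPM. These values are descriptions, since the libraries fall into 6 groups of shared genotype and cytokine. For Axl the 5 highest were Pdgfb (r = 0.92), Slc2a6 (0.90), Ckb (0.89), Acsl6 (0.88) and Plbd2 (0.87). Pdgfb, a growth factor gene, averaged 24.4 CPM in KO against 8.77 CPM in WT with IL12, 23.2 CPM in KO against 15.1 CPM in WT with TGFB1, and 14.4 CPM in KO against 4.59 CPM in WT without cytokine. This is the order of Axl except that KO with IL12 was above KO with TGFB1.

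For Pros1 the 5 genes were Smad2 (r = 0.82), Sil1 (0.80), Slc25a15 (0.80), Ppt1 (0.79) and Pik3c2a (0.78). Each had its highest mean in KO cells with TGFB1: Smad2, a transcription factor that TGFB receptors phosphorylate, averaged 113 CPM there and 79.7 CPM in WT cells with TGFB1, and Ppt1, a lysosomal thioesterase gene, 324 CPM in KO against 154 CPM in WT cells with TGFB1. By Spearman's rank correlation only 1 of these 5 stayed among the 5 highest for Pros1, against 3 of 5 for Axl. For Tyro3, r was 0.72 with Abl1, 0.68 with Brpf3, 0.63 with Slc23a2 and 0.63 with Cand2, and 4 of its 5 highest genes stayed.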

How the data were processed

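The deposited table holds raw read counts per Ensembl gene for 30 libraries; no normalization had been applied. The submitters' processing notes list GRCm38, STAR, Trim Galore, FastQC and DESeq2 1.24.0; which program counted reads, with which annotation and strand option, is not given in the sources used here. Per the labels, libraries were made from poly(A) RNA with a directional kit. Symbols and exon lengths came from GENCODE vM21 (55480 of 55573 genes matched), and promoter sequences from RefSeq.

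In R 4.3.3, edgeR 4.0.16 kept 11718 genes with filterByExpr (minimum count 10; 99.88% of counts), computed CPM from the deposited counts with TMM factors, and fitted 1 quasi-likelihood model with a mean per group to all 30 libraries. Tests were two-sided with Benjamini-Hochberg adjustment over the 11718 genes. The scripts were tested on simulated data. The members, the lists and the tests were chosen with earlier results of these data known. Named are the members, up to 4 called genes per list and comparison with the largest fold change, and the 5 genes most like each member (log2 CPM with a prior count of 1); not every gene the rule takes is described. A few genes of the lists are counted but not reported here. No 2 libraries of a group were copies of each other. Alternatives used other size factors, no filter, DESeq2 1.42.0, limma 3.58.1, a replicate block, the compared groups alone, females alone, and leaving out each library.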

Additional observations from a re-analysis of the deposited data

Results flagged for a closer look

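Pros1 in WT cells without added cytokine had 1 library far from the others of its group: WT 75 held 27.6 CPM, against 17.4 to 19.6 CPM in the other WT libraries and 12 to 15 CPM in KO libraries. The rule looks for a large gap to the next library relative to the range of the group, and flags about 1 in 20 groups by chance. It was applied to Axl, Tyro3 and Pros1 in each of the 6 groups, so a single flag can be expected by chance. Without WT 75, the log2 fold change of Pros1 in KO over WT without cytokine was -0.45, against -0.58 with it.

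The response of Pros1 to TGFB1 differed between the genotypes by 1.84 ± 0.32 (log2, KO minus WT, SE), with 1.26 in KO and -0.59 in WT. Pros1 was among genes selected with these values known. The difference was 2.06 without WT 62 with TGFB1 and 1.64 without KO 74 with TGFB1.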

How the results depend on the processing

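All 1212 recomputed fold changes of Axl, Tyro3 and Pros1 moved by less than the spread between replicates (1 SD). Leaving out 1 of the 5 libraries of a group moves its mean by less than 1 SD in any case. For those fits this limit could therefore hardly be exceeded. Calls of these genes that the report counts and that ended are given with those counts. Of 512 recomputed list counts, 34 moved by over 1.5 times. For ligand maturation, shedding and TAM signalling, the count between KO and WT with IL12 (2) was 1 with no filter on low counts and 1 with the compared groups alone, and without cytokine (2) it was 10 with the compared groups alone. For phosphatidylserine exposure and recognition, it was 1 in females alone and 1 by limma-voom with a random replicate block with IL12 (0), 9 in females alone with TGFB1 (5), and 2 with the compared groups alone without cytokine (0). Leaving out each library, the first list ranged from 0 to 6 between KO and WT with IL12, from 0 to 4 without cytokine, from 2 to 9 for IL12 in KO and from 4 to 10 for IL12 in WT. The second ranged from 0 to 1 between KO and WT with IL12, from 2 to 10 with TGFB1 and from 6 to 10 for IL12 in WT. Over the whole table, genes called between KO and WT without cytokine (246) ranged from 7 (without KO 74) to 564 (without KO 73), with 460 by DESeq2 and 1099 with the compared groups alone. Those with IL12 (794) ranged from 174 (without WT 75) to 1530 (without WT 62), with 45 with the compared groups alone and 504 with no filter. Those with TGFB1 (4166) were 2307 with the compared groups alone. For IL12 against no cytokine they were 1043 without KO 74 in KO (1668), and 1324 without WT 72 and 1462 without WT 75 in WT (2209). The cause was not tested.

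Library numbers are shared between conditions but not between genotypes. After removal of group means, the correlation of 30 pairs sharing a number had a median of 0.222, from -0.0359 to 0.439, with 26 over 0.1, and 13 libraries correlated best with a library of their own number among all others. With the replicate block in edgeR, the log2 fold change of Pros1 with TGFB1 was 1.22 in KO and -0.62 in WT, and that of Axl 1.51 in WT.

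For Mertk and Gas6 no ratio with an interval was computed, since both sides were at or under 3 counts. Floors cover counting error only.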
